A study of Mus musculus with 6 samples.

Results

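The Eph receptors, ephrins, semaphorins, plexins and neuropilins are families of cell-surface and secreted proteins that steer migrating neurons and growing axons. They were taken from the full gene table by symbol, as protein-coding genes of the Epha, Ephb, Efna, Efnb, Sema3 to Sema7, Plxna to Plxnd and Nrp series. This gave 53 of the 29659 genes in the table, of which 28 encode ligands and 25 receptors. RNA was sequenced from the lateral ganglionic eminence (LGE), the ventral forebrain region that produces striatal projection neurons, of C57BL/6 mouse embryos at embryonic day 16.5. The 3 control libraries came from Dlx5/6-Cre embryos and the 3 Zfhx3-CKO libraries (called knockout libraries below) from embryos that carried Dlx5/6-Cre with floxed Zfhx3 (Zfhx3F/F), so both groups carried the Cre transgene. Zfhx3 encodes a large transcription factor with zinc fingers and homeodomains, and the comparison asks how its conditional loss changes expression in the LGE. Dlx5/6-Cre acts in neurons and late progenitors of the ganglionic eminences, so other cells of the dissected tissue are not expected to lose the gene. The labels do not say whether the libraries came from separate embryos, so p-values speak only of how far these libraries scatter, and that scatter may be technical.

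Eph receptors are receptor tyrosine kinases that bind ephrins on a neighbouring cell. The A-type ephrins are held in the membrane by a lipid anchor and the B-type ephrins by a transmembrane segment, and signals can run into both cells. Semaphorins are secreted (class 3) or membrane-bound and signal through plexins, and most class 3 semaphorins also need a neuropilin to bind. In the embryonic ventral forebrain these proteins are known for keeping migrating cortical interneurons out of the striatum, for parting the striosome and matrix compartments, and for guiding axons through the internal capsule.

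Library totals ran from 15938590 to 16753355 counts for controls and from 18960574 to 20311799 for the Zfhx3-CKO group. Zfhx3 itself was measured at 134, 135 and 101 CPM (counts scaled to a fixed library total) in control libraries against 98.8, 87.4 and 99.4 CPM in knockout libraries, and its log2 change of -0.37 (SE 0.12) did not pass edgeR's test (adjusted p 0.091). Zfhx3 passed as lower with DESeq2 (adjusted p 0.0468), with no low-count filter (0.0308) and without control library 3 (0.0259). Since the deleted exons are not given and reads were summed over the gene, this says little about the labels. Xist had 5 to 9 counts in the controls and 55947 to 59631 in the knockout libraries, and the Y-linked gene Kdm5d 1281 to 1424 and 1 to 5, so sex and genotype cannot be told apart here. Knockout libraries 1 and 3 stood apart in cortical excitatory neuron markers: the 12 listed genes summed to 55.0 to 58.4 CPM in the controls and to 208, 53.9 and 295 CPM in knockout libraries 1, 2 and 3. None of the 12 was at 0 in all libraries, and 1 of 11 tested (Bhlhe22) passed as higher. All 11 were higher at an unadjusted p under 0.05 in edgeR, and all 11 passed as higher without knockout library 2. Knockout library 2 stood apart in red blood cell markers: the 5 listed genes, none at 0 in all libraries, summed to 709.7 to 1080.0 CPM in the controls and to 705, 2553 and 812 CPM in knockout libraries 1, 2 and 3. None of the 4 tested passed with all libraries in edgeR or DESeq2 (0 at an unadjusted p under 0.05 in either), and all 4 were called higher when library 2 alone stood for the knockout group. Fits without knockout libraries 1 and 3, given below, rest on that library, and the part of these cells in them was not tested. Of 9 listed markers shared by both types of striatal projection neuron, 5 passed as lower and 4 did not pass. Foxp1, which was among those that passed, had a log2 change of -1.17 (edgeR adjusted p 0.00144). In addition, 2 of 6 D1-type projection neuron markers were lower and 5 of 6 D2-type markers were higher. In such bulk tissue, fewer cells of a type and less RNA per cell cannot be told apart.

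In the Zfhx3-CKO LGE, 5 of the 52 tested guidance genes rose and 2 fell. The 5 were the receptor genes Ephb2, Nrp2 and Plxnb2 and the semaphorin genes Sema5b and Sema7a, and the 2 were the receptor gene Ephb1 and the semaphorin gene Sema6a. These are 9.62% and 3.85% of the tested members, where 3.87% of all 16551 tested genes were called higher and 3.49% lower (edgeR's quasi-likelihood test, Benjamini-Hochberg adjusted p under 0.05). Fold changes were moderate, from 1.20-fold for Plxnb2 to 1.98-fold for Nrp2 among the genes that rose. In either direction this was 7 of 52 members (13.5%) and 7.36% of all genes. At an unadjusted p under 0.05, 15 members were higher and 3 lower, where 13.5% and 12.1% of all tested genes were. The remaining 45 tested genes did not pass, and Epha1, at 0.0899 FPKM (fragments scaled by gene length and library total) over the 6 libraries, missed the low-count filter.

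Of 24 tested receptor genes 3 rose and 1 fell, with a median log2 change of 0.24. Of 28 ligand genes 2 rose and 1 fell, with a median of 0.11. The median over all tested genes was 0.0011. The log2 change lay above 0 for 37 of the 52 members, where 50.1% of all tested genes lay above 0. Against the control mean, the median of the members stood at 0.06, 0.02 and 0.27 (log2 CPM) in knockout libraries 1, 2 and 3, and at 0.00, 0.05 and -0.05 in the controls. For the receptors alone the medians were 0.23, 0.07 and 0.32 in knockout libraries 1, 2 and 3, and for the ligands 0.03, -0.01 and 0.14. Library 2 was lowest and library 3 highest in both, as in the cortical and D1-type marker sums, among others. All 3 knockout values lay above all 3 control values for 12 members and below them for 5, and the corresponding shares over all tested genes were 15.5% and 15.9%.

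**Figure D1:**
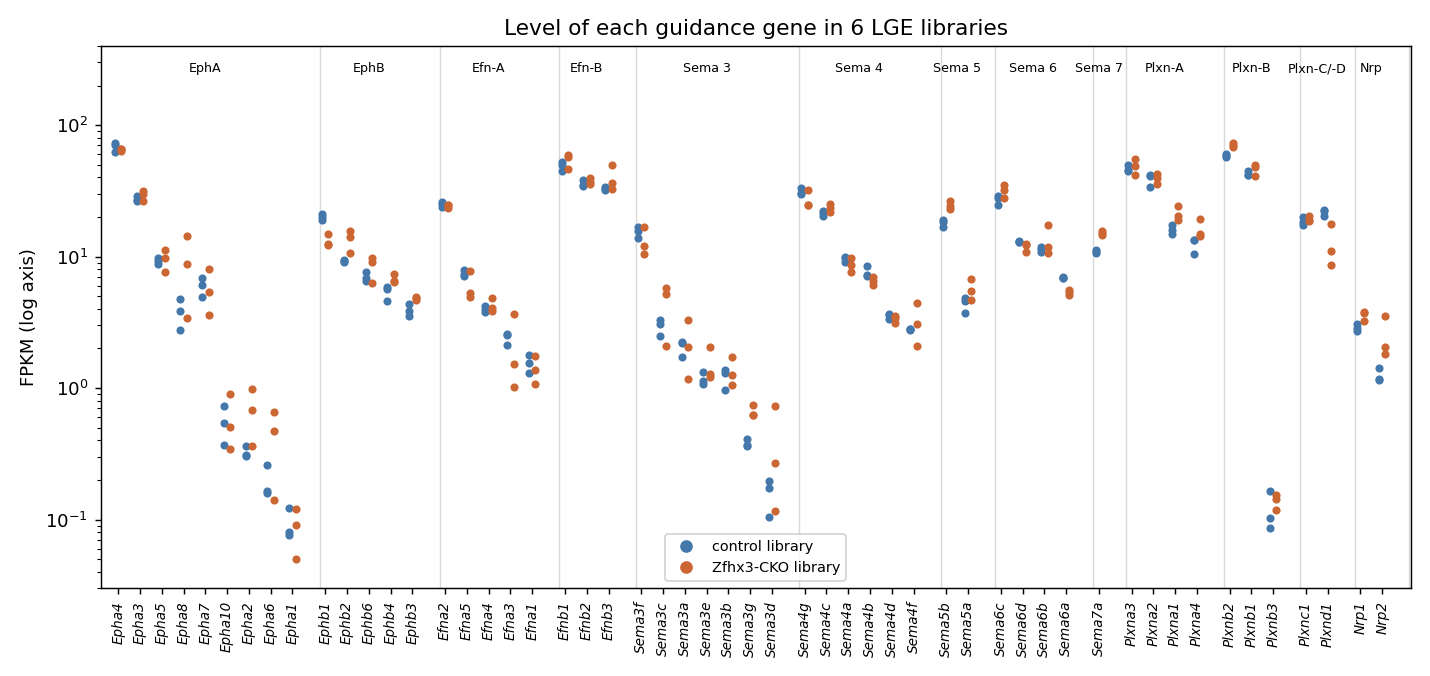
FPKM of each of the 53 genes on a log axis, 1 point per library, with control libraries in blue and Zfhx3-CKO libraries in orange, grouped by family and ordered by mean level. Epha4, Plxnb2 and Efnb1 have the highest means, and Epha1 and Plxnb3 are near 0.1 FPKM.

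On the FPKM scale, 46 of the 53 genes had a mean of at least 1 and 24 of at least 10. Epha4, whose product binds ephrins of both types and is known from the striatal matrix, had the highest mean over the 6 libraries, 66.9 FPKM (62.4 to 73.1). Its range overlapped that of Plxnb2 (57.1 to 72.7), which was the higher in all 3 knockout libraries (70.2, 72.7 and 67.9 FPKM against 65.4, 66.3 and 63.5 for Epha4). It made up 56.5% of the summed EphA FPKM, followed by Epha3 at 28.4 FPKM (26.4 to 31.5), and their ranges did not overlap. Epha5, Epha8 and Epha7 came next, each overlapping its neighbour in range. Among the plexins, Plxnb2 (64.6 FPKM), Plxna3 (47.6), Plxnb1 (44.5) and Plxna2 (38.9) were the most abundant, and the last 3 of these overlapped in range. The ephrin-B genes, at 51.7 FPKM for Efnb1, 36.7 for Efnb2 and 36.3 for Efnb3, all lay above the highest ephrin-A gene, Efna2 (24.6 FPKM). The ranges of Efnb2 and Efnb3 overlapped, so their order is not resolved. The neuropilin genes were low, at 3.24 FPKM for Nrp1 and 1.86 FPKM for Nrp2.

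**Figure D2:**
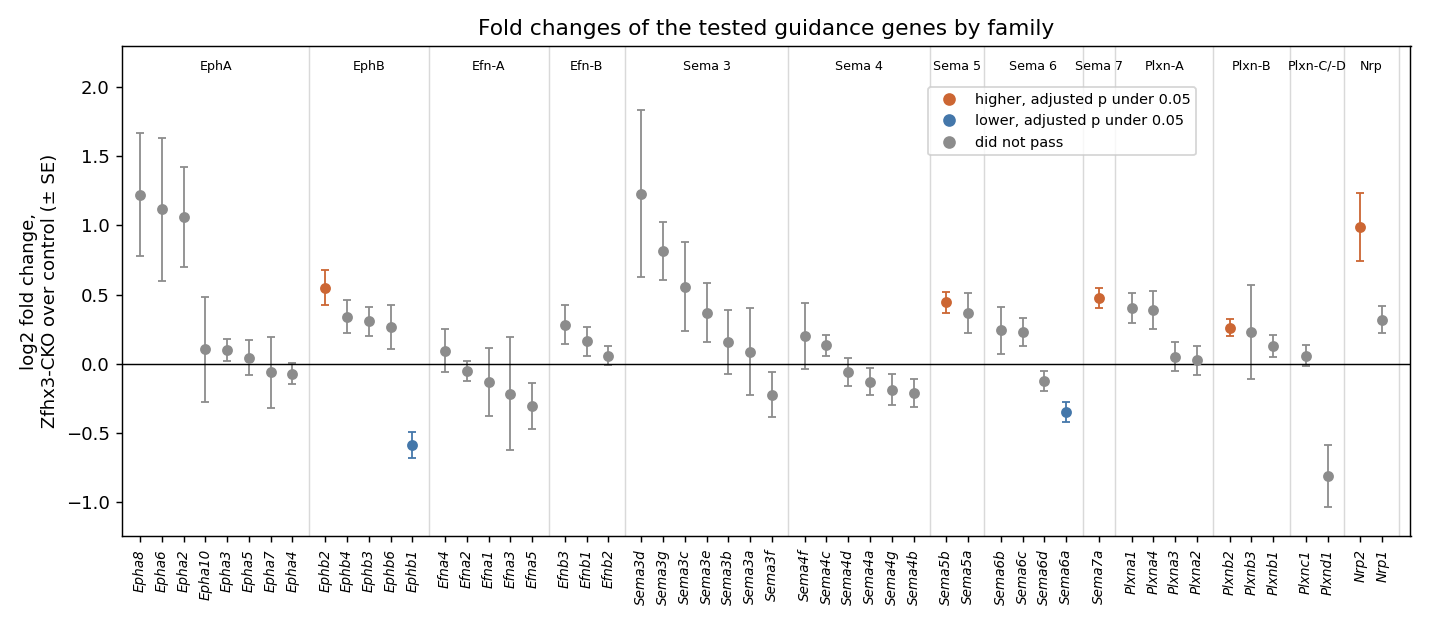
Log2 fold change of Zfhx3-CKO over control with its SE for the 52 tested genes, grouped by family, with genes past an adjusted p of 0.05 in orange (higher) or blue (lower) and the others in grey. The widest error bars belong to Sema3d, Epha6 and Epha8, which lie above 1 and did not pass.

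Of the 5 EphB receptor genes 1 fell and 1 rose. Ephb1, an ephrin-B receptor known for sorting axons at the optic chiasm and for interneuron migration, was measured at 141, 148 and 131 CPM in control libraries against 87.6, 86.7 and 106 CPM in knockout libraries. Every knockout value lay below every control value. Ephb1 (ENSMUSG00000032537, chromosome 9, 101922128 to 102354693, minus strand, GRCm38) fell 1.5-fold (mean 140.2 ± 8.58 CPM against 93.3 ± 10.6 CPM, SD, n = 3 each) with a log2 change of -0.59 (SE 0.09, edgeR adjusted p 0.00943). The call was lost without any 1 of control libraries 1 and 2 and knockout library 1 (adjusted p 0.0652, 0.067 and 0.054) and when the replicate number entered as a block (0.0587). An exon of Ephb1 overlaps the antisense gene Gm26846, and the library kit does not mark strand, so their reads cannot be told apart.

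Ephb2, the closely related receptor that acts in axon guidance and at excitatory synapses, moved the other way. It was measured at 114, 119 and 115 CPM in control libraries against 176, 135 and 199 CPM in knockout libraries. The groups did not overlap, and library 2 was the nearest to the controls. Ephb2 (ENSMUSG00000028664, chromosome 4, 136647539 to 136835988, minus strand) rose 1.46-fold (mean 116 ± 2.43 CPM against 169.9 ± 32.7 CPM, log2 change 0.55, SE 0.13, edgeR adjusted p 0.0391). Without knockout libraries 1 and 3, the libraries with high cortical markers, its log2 change was 0.21 (adjusted p 0.154). The part of cortical cells in this result was not tested. The call was also lost without any 1 of the 3 control libraries or knockout library 1 (adjusted p 0.153, 0.135, 0.11 and 0.123), with the block (0.103) and with limma on FPKM (0.0719).

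Per gene length (FPKM), Ephb1 exceeded Ephb2 in all 3 controls, while in the knockout libraries the levels were close, with Ephb1 the higher in library 2 alone. The ratio of Ephb1 to Ephb2 FPKM was 2.22, 2.25 and 2.06 in the controls and 0.896, 1.16 and 0.955 in the knockout libraries. The summed EphB FPKM was 45.5 ± 0.885 (SD, n = 3) in the controls and 46.7 ± 4.92 in the knockout libraries, a difference smaller than the spread. This ratio was chosen after the values were seen and carries no test.

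The 250 bases before the transcription start of Ephb1 and Ephb2 are shown because these sister genes were called in opposite directions, and those of Nrp2 because it had the largest fold among the called genes. Sequences are from RefSeq (GRCm38.p6), 5′ to 3′ on the gene's strand. Capitals mark TAAT or its reverse complement ATTA, a core that many homeodomain proteins recognise.
Ephb1: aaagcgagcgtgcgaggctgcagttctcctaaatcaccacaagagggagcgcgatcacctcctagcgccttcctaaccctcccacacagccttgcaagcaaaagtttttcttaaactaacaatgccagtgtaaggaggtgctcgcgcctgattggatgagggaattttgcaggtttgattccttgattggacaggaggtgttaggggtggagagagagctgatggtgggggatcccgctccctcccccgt
Ephb2: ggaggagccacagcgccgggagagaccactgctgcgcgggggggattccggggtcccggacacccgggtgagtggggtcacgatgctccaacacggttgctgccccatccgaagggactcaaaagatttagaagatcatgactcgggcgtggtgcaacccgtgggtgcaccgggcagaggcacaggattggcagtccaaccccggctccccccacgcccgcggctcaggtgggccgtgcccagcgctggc
Nrp2: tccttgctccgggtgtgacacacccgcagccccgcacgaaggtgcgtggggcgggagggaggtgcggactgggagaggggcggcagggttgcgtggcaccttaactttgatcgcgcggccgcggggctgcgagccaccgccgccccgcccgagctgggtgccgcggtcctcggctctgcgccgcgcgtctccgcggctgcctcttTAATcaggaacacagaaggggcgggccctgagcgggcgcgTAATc
The windows are chr9:102354694-102354943 (minus strand) for Ephb1, chr4:136836013-136836262 (minus strand) for Ephb2 and chr1:62703067-62703316 (plus strand) for Nrp2. Their GC contents were 54%, 68.4% and 72.4%, where the median of all 32851 windows in the table was 52.4%. Nrp2 held 2 matches and the Ephb1 and Ephb2 windows held none. The RefSeq start of Nrp2 lies 32 bases inside the deposited gene, so the match at the end of its window lies within that gene. Promoter entries matched 47 of the 53 members by symbol, and for 43 the start lay within 1000 bases of the deposited gene start. Of these, 15 (34.9%) held the motif on either strand, against 54.9% of all windows of the same length. The median GC content of the member windows was 64.8%, above the 52.4% of all windows. The motif holds only A and T, and the part of base composition in these shares was not tested. A match or its absence describes only these letters.

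The other 3 EphB genes had log2 changes above 0 and did not pass. Ephb3 was measured at 24.1, 22.1 and 27.4 CPM in control libraries against 30.1, 29.4 and 31.4 CPM in knockout libraries (log2 change 0.31, edgeR adjusted p 0.111). Ephb4, a receptor of venous endothelium, showed a log2 change of 0.34 (adjusted p 0.124). For both genes the groups did not overlap. Ephb6, which lacks kinase activity, showed a log2 change of 0.26 (adjusted p 0.338), its groups overlapped, and it passed as higher without knockout library 2 (log2 change 0.43, adjusted p 0.0434).

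None of the 8 tested EphA receptor genes passed in edgeR or in DESeq2 (which called 6.13% of all tested genes higher and 4.79% lower), and 2 had an unadjusted p under 0.05 in edgeR, where 25.6% of all tested genes did. Epha4 was measured at 569, 592 and 499 CPM in control libraries against 524, 536 and 517 CPM in knockout libraries, so the groups overlapped (log2 change -0.07, SE 0.08, adjusted p 0.589). Epha3, Epha5 and Epha7 showed log2 changes of 0.10, 0.04 and -0.06 (adjusted p 0.49, 0.87 and 0.907). Epha2, the EphA gene with the smallest p, was measured at 1.43, 1.45 and 1.68 CPM in control libraries against 3.19, 1.69 and 4.67 CPM in knockout libraries (log2 change 1.06, adjusted p 0.112). Without knockout library 2 it passed (log2 change 1.37, adjusted p 0.0159). Epha8 spread more widely still, measured at 22.3, 18.4 and 13.0 CPM in control libraries against 41.1, 16.1 and 68.3 CPM in knockout libraries 1, 2 and 3 (log2 change 1.22, adjusted p 0.129). Epha8 passed as higher with no low-count filter (adjusted p 0.0117) and without knockout library 2 (log2 change 1.61, adjusted p 0.00574), and had a log2 change of -0.15 without libraries 1 and 3. In both genes libraries 1 and 3 were high and library 2 lay at or near the control level, the order of the cortical marker sums given above, whose part in these values was not tested. Epha6 also passed as higher without library 2 (log2 change 1.53, adjusted p 0.0209), and Epha7 as lower without libraries 1 and 3 (-0.72, adjusted p 0.0322).

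None of the 8 ephrin genes passed in edgeR or DESeq2, and none had an unadjusted p under 0.05 in either. Efna2, the main A-type ligand gene, was measured at 50.5, 54.2 and 55.5 CPM in control libraries against 52.1, 52.4 and 50.1 CPM in knockout libraries (log2 change -0.05, SE 0.07, edgeR adjusted p 0.705). Efna5, a repellent ligand of topographic maps, read 31.9, 28.9 and 29.5 CPM against 19.9, 31.4 and 21.6 CPM (log2 change -0.31, adjusted p 0.283). Here libraries 1 and 3 were low and library 2 was at the control level. Without library 2 Efna5 passed as lower (log2 change -0.53, adjusted p 0.0212), and without libraries 1 and 3 its log2 change was 0.06. The other A-type genes, Efna1, Efna3 and Efna4, ranged from -0.22 to 0.09. Efna3 passed as lower without knockout library 3 (log2 change -0.92, adjusted p 0.0344) and without libraries 1 and 3 (-1.23, adjusted p 0.0211), and had a log2 change of 0.10 without library 2.

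Of the B-type ligands, Efnb1 was measured at 155, 172 and 181 CPM in control libraries against 198, 206 and 162 CPM in knockout libraries (log2 change 0.16, edgeR adjusted p 0.364). Efnb1 is X-linked, and sex differs between the groups. Efnb2, an arterial and neural ligand, showed a log2 change of 0.06 (adjusted p 0.64). Efnb3, a midline repellent, read 105, 108 and 101 CPM against 116, 105 and 161 CPM (log2 change 0.28, adjusted p 0.256), with library 3 highest. The summed FPKM of the B-type genes was 116, 118 and 119.9 in the controls and 131, 132 and 132 in the knockout libraries, so the sums did not overlap although each gene's values did. No test was made of this sum, which was examined after the values were seen.

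Of the 20 semaphorin genes 2 rose and 1 fell. Sema7a, a lipid-anchored semaphorin that acts through integrins and plexin-C1, was measured at 37.1, 35.6 and 34.8 CPM in control libraries against 48.2, 51.5 and 49.98 CPM in knockout libraries. The groups were well apart and library 2 was the highest. Sema7a (ENSMUSG00000038264, chromosome 9, 57940112 to 57962865, plus strand) rose 1.39-fold (mean 35.8 ± 1.18 CPM against 49.9 ± 1.66 CPM, SD, n = 3 each) with a log2 change of 0.48 (SE 0.07, edgeR adjusted p 0.00891). The log2 change was 0.52 without knockout libraries 1 and 3 (adjusted p 0.0161). The call was lost without control library 2 (0.0603) and with the replicate block (0.066).

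Sema5b, a membrane-spanning semaphorin with thrombospondin repeats, was measured at 119, 131 and 134 CPM in control libraries against 171, 187 and 165 CPM in knockout libraries. Again the groups did not overlap, and library 2 was the highest. Sema5b (ENSMUSG00000052133, chromosome 16, 35541145 to 35664732, plus strand) rose 1.36-fold (mean 128 ± 7.78 CPM against 174 ± 11.4 CPM, log2 change 0.44, SE 0.08, edgeR adjusted p 0.0132). Without knockout libraries 1 and 3 the log2 change was 0.55 (adjusted p 0.00919). The call was lost without any 1 of control libraries 1 and 2 and knockout library 1 (0.0746, 0.0668 and 0.0549) and with the block (0.0632). Its class 5 partner Sema5a showed a log2 change of 0.37 and did not pass (adjusted p 0.16).

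Sema6a, a transmembrane ligand of plexin-A2 and plexin-A4, was measured at 59.9, 61.2 and 59.7 CPM in control libraries against 44.6, 49.3 and 48.0 CPM in knockout libraries. All 3 knockout values were lower and the controls were tight. Sema6a (ENSMUSG00000019647, chromosome 18, 47235598 to 47368870, minus strand) fell 1.27-fold (mean 60.3 ± 0.85 CPM against 47.3 ± 2.42 CPM, log2 change -0.35, SE 0.07, edgeR adjusted p 0.0254). The call was lost without any 1 of the 3 control libraries or knockout library 1 (0.111, 0.13, 0.0604 and 0.11), without knockout libraries 1 and 3 (0.0946) and with the block (0.106). The most abundant class 6 gene, Sema6c, read 146, 167 and 170.4 CPM against 166, 191 and 210.1 CPM (log2 change 0.23, adjusted p 0.191). Sema6b and Sema6d showed log2 changes of 0.24 and -0.13, and neither passed.

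None of the 7 class 3 genes passed in edgeR or DESeq2, and 1, Sema3g, had an unadjusted p under 0.05 in edgeR. Sema3g, known from endothelium, was measured at 1.67, 1.64 and 1.86 CPM in control libraries against 3.38, 2.86 and 2.87 CPM in knockout libraries (log2 change 0.82, SE 0.21, adjusted p 0.0524). The groups did not overlap. The 10 listed endothelial and pericyte markers, none at 0 in all libraries, summed to 294 to 307 CPM in the controls. Their sums were 302, 319 and 379 CPM in knockout libraries 1, 2 and 3. Library 3 was highest in these sums and library 1 in Sema3g. None of the 10 passed in edgeR, 3 had an unadjusted p under 0.05, and DESeq2 called 1. Their part in the Sema3g values was not tested. Sema3f, the main class 3 gene and a ligand of neuropilin-2, read 81.0, 87.1 and 72.0 CPM against 62.4, 54.8 and 88.3 CPM (log2 change -0.22, adjusted p 0.431). Without knockout library 3 it passed as lower (log2 change -0.45, adjusted p 0.0224), as it did without libraries 1 and 3 (-0.55, adjusted p 0.0243). Sema3a, the other classical interneuron repellent, read 31.0, 30.8 and 23.9 CPM against 28.3, 16.2 and 46.4 CPM (log2 change 0.09, adjusted p 0.895), so the knockout libraries spanned the controls on both sides. Without libraries 1 and 3 Sema3a passed as lower (log2 change -0.82, adjusted p 0.0223), and Sema3c passed as higher without library 2 (log2 change 0.89, adjusted p 0.00596).

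The 6 class 4 genes, membrane-bound ligands mainly of plexin-B, did not pass in edgeR or DESeq2, and none had an unadjusted p under 0.05 in either. Sema4g, the most abundant, was measured at 146, 163 and 146 CPM in control libraries against 121, 121 and 158 CPM in knockout libraries (log2 change -0.19, edgeR adjusted p 0.329), and passed as lower without knockout library 3 (log2 change -0.33, adjusted p 0.0243). Sema4b had the smallest p of the class (log2 change -0.21, adjusted p 0.218) and its groups did not overlap. The class ranged from -0.21 to 0.20.

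**Figure D3:**
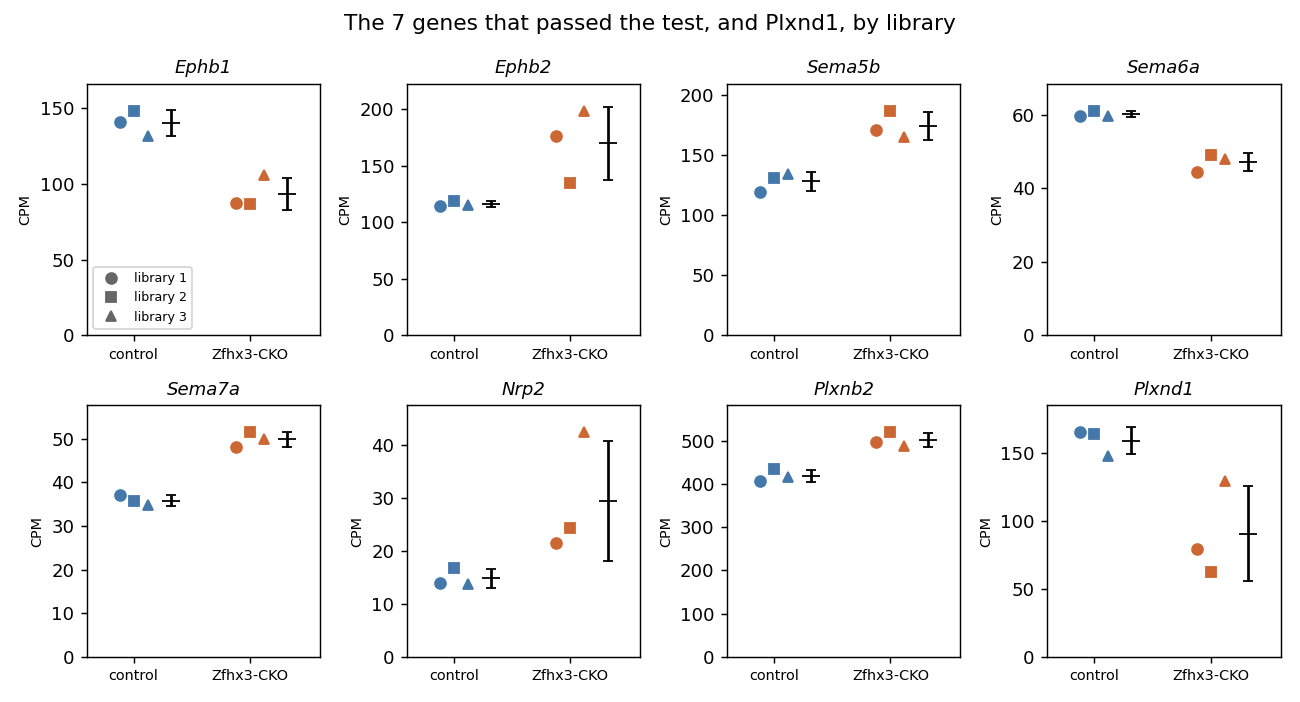
CPM in each library for the 7 genes past the threshold and for Plxnd1, with library 1 as circles, 2 as squares and 3 as triangles, and mean ± SD (n = 3) as black bars. Sema7a, Sema6a and Plxnb2 are tight within groups, while Nrp2 and Ephb2 are highest and Plxnd1 least reduced in Zfhx3-CKO library 3.

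Of the 9 plexin genes 1 rose. Plxnb2, a receptor for class 4 semaphorins that neural progenitors express, was measured at 407, 434 and 417 CPM in control libraries against 497, 519 and 488 CPM in knockout libraries. The change was small but the groups did not overlap. Plxnb2 (ENSMUSG00000036606, chromosome 15, 89155549 to 89171120, minus strand) rose 1.20-fold (mean 419 ± 13.9 CPM against 502 ± 16.2 CPM, log2 change 0.26, SE 0.06, edgeR adjusted p 0.0418). The call was lost in 5 of 6 fits without 1 library (each control library and knockout libraries 1 and 2, adjusted p 0.0718 to 0.161), without knockout libraries 1 and 3 (0.0506) and with the block (0.137). The 6 listed proliferation markers summed to 1632 to 1709 CPM in the controls and to 2247, 2479 and 1897 CPM in knockout libraries 1, 2 and 3. Of these, 2 of 6 were higher and none was at 0. The 9 listed LGE progenitor markers, none at 0, summed to 2189 to 2658 CPM in the controls and to 2814, 2937 and 2145 CPM in the knockout libraries. In library 3 this sum lay below every control, while Plxnb2 lay above. None of the 9 passed in edgeR, 4 had an unadjusted p under 0.05, and DESeq2 called 1 higher. The part of either list in the Plxnb2 values was not tested.

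Plxnd1, which direct-pathway striatal neurons use to respond to Sema3E, had the largest drop of any member but did not pass. It was measured at 165, 164 and 148 CPM in control libraries against 79.5, 62.7 and 129.7 CPM in knockout libraries 1, 2 and 3. All 3 knockout values were lower, and library 3 lay far nearer the controls than the other two. The log2 change was -0.81 (SE 0.23, edgeR adjusted p 0.0641). Without knockout library 3 Plxnd1 passed as lower (log2 change -1.16, adjusted p 0.000579), as it did without libraries 1 and 3 (-1.34, adjusted p 0.000212) and with no low-count filter (-0.80, adjusted p 0.00225). The 6 D1-type neuron markers, none of them at 0, summed to 398 to 510 CPM in the controls and to 143, 126 and 194 CPM in knockout libraries 1, 2 and 3. This is the same order as Plxnd1, but the cortical excitatory marker sums had it too, as did 24.5% of all tested genes. The part of D1-type neurons in the Plxnd1 values was not tested. Sema3e, its ligand gene, read 12.4, 10.5 and 9.82 CPM against 11.2, 11.9 and 19.1 CPM (log2 change 0.37, adjusted p 0.319). Plxnc1, the Sema7A receptor gene, read 166, 154 and 145 CPM against 155, 158 and 171 CPM (log2 change 0.06, adjusted p 0.683).

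The plexin-A genes encode the signalling partners of the neuropilins and receptors of class 6 semaphorins, and none of the 4 passed in edgeR, with 2 at an unadjusted p under 0.05. Plxna1 was measured at 144, 159 and 133 CPM in control libraries against 182, 171 and 223 CPM in knockout libraries (log2 change 0.40, SE 0.11, adjusted p 0.0607). It passed with DESeq2 (adjusted p 0.0141), with no low-count filter (0.0102) and without knockout library 2 (0.0271). Plxna4 showed a log2 change of 0.39 (adjusted p 0.123), also with groups that did not overlap, and passed with no low-count filter (adjusted p 0.0288). Plxna2 and the X-linked Plxna3 showed log2 changes of 0.02 and 0.05 (adjusted p 0.914 and 0.807). Plxnb1 and the X-linked, weakly expressed Plxnb3 showed log2 changes of 0.13 and 0.23 (adjusted p 0.363 and 0.724).

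Both neuropilin genes were higher in every knockout library than in any control, and 1 passed. Nrp2, the receptor that favours Sema3F, was measured at 14.0, 16.8 and 13.7 CPM in control libraries against 21.5, 24.3 and 42.3 CPM in knockout libraries. Library 3 was highest and set most of the spread. Nrp2 (ENSMUSG00000025969, chromosome 1, 62703285 to 62818695, plus strand) rose 1.98-fold (mean 14.8 ± 1.75 CPM against 29.4 ± 11.3 CPM, log2 change 0.99, SE 0.25, edgeR adjusted p 0.0477). Its log2 change was 0.63 without knockout library 3 (adjusted p 0.019) and 0.71 without libraries 1 and 3 (adjusted p 0.0239). The call was lost without any 1 of the 3 control libraries or knockout library 1 (0.181, 0.129, 0.133 and 0.0509), with the strict filter (0.0508), with limma on FPKM (0.106) and with the block (0.112). The 6 markers of the medial ganglionic eminence, a source of interneurons, summed to 260 to 293 CPM in the controls and to 326, 436 and 475 CPM in the knockout libraries, with 3 of 6 higher and none at 0. Their part in the Nrp2 values was not tested. Nrp1, which binds Sema3A, read 30.2, 28.3 and 26.5 CPM against 37.1, 31.99 and 36.7 CPM (log2 change 0.32, adjusted p 0.0887).

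Genes that act with these receptors were read from 3 lists chosen with earlier results of these data known. Of 34 tested plexin and neuropilin effector genes, 1 fell and 1 rose, with a list median of -0.01. Dpysl2, which encodes CRMP2, a microtubule-binding mediator of Sema3A signals, was measured at 262, 230.1 and 284 CPM in control libraries against 147, 162 and 155 CPM in knockout libraries. The groups were far apart, with a log2 change of -0.74 (SE 0.09, edgeR adjusted p 0.00296), and Dpysl2 passed in each of the 14 alternative fits (highest adjusted p 0.027). Rnd2, a small GTPase of migrating neurons, rose from 33.2, 38.2 and 40.4 CPM to 58.5, 45.4 and 53.4 CPM (log2 change 0.49, adjusted p 0.04). Of 31 Eph and ephrin partner genes, Yes1, a Src-family kinase, fell (log2 change -0.42, adjusted p 0.0341), Chn2, a chimaerin that switches off Rac, rose (log2 change 0.50, adjusted p 0.0488), and 29 did not pass. The calls of Rnd2, Yes1 and Chn2 were each lost without any 1 control library, without knockout library 1, without knockout libraries 1 and 3 and with the block (adjusted p 0.0725 to 0.191) and with limma on FPKM (0.0549 to 0.0709), and that of Chn2 also without knockout library 3 (0.0518). None of 12 tested semaphorin co-receptor genes passed in edgeR or DESeq2, with 5 at an unadjusted p under 0.05 in edgeR, and the smallest p belonged to Cd72, at 0.252 to 0.359 CPM in the controls and 0.637 to 0.872 CPM in the knockout libraries (adjusted p 0.0759).

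**Figure D4:**
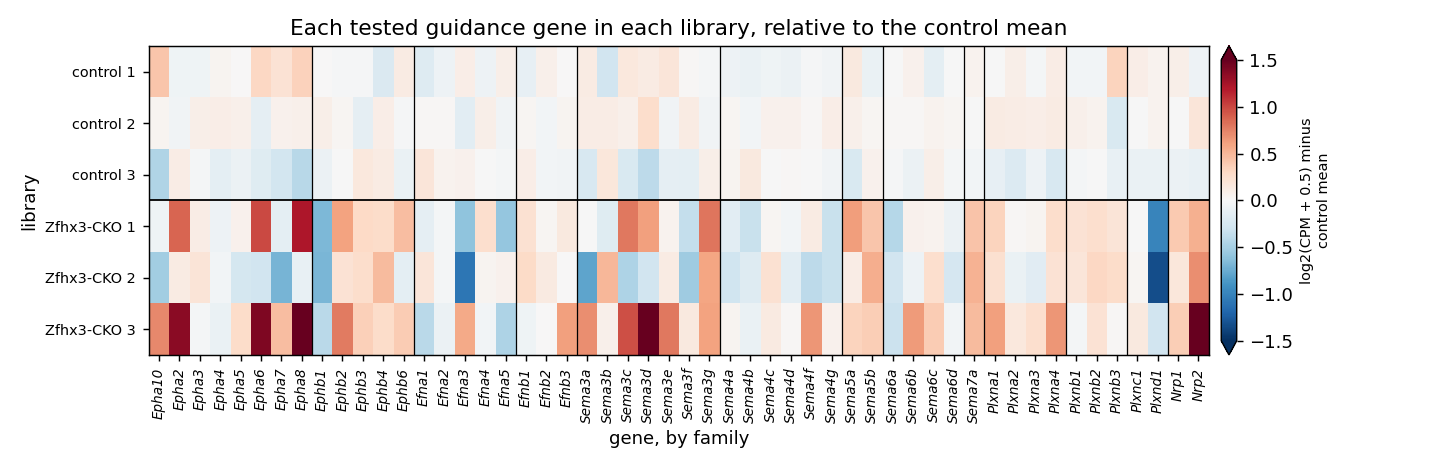
Difference of log2(CPM + 0.5) from the control mean for each of the 52 tested genes (columns, by family) in each of the 6 libraries (rows), red where higher and blue where lower. Epha2, Epha6, Epha8, Sema3c and Sema3d are high in Zfhx3-CKO libraries 1 and 3 and near the controls or below in library 2.

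In the authors' deposited table, 7 of the members had an adjusted p under 0.05 with a positive log2 change (the 5 above, Plxna1 and Plxna4) and 2 with a negative one (Ephb1 and Sema6a). Over all genes of that table with an adjusted p, the shares were 6.87% and 4.88%. That table marked 122 of its 29659 genes as significant, and none of the 53 members was among them. With so few genes marked, the absence of a mark says little about these families.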

How the data were processed

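Per the file headers, the deposited counts are whole numbers per gene, not normalised, and FPKM values were deposited beside them. Tools named in the submitters' processing notes were HISAT2, StringTie, edgeR and bcl2fastq 2.17.1.14, with mm10 and GRCm38.p4 as builds. Their settings are not given in the sources used here. The log2 fold changes and p-values of the authors' deposited table come from a test that its headers do not name. The full table's short column names were tied to samples by group and number, and 3726 genes also present in a table headed by sample titles had identical values.

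All 16551 genes past edgeR's filterByExpr (minimum count 10) were tested together with the quasi-likelihood test, TMM factors (0.992 to 1.008) and Benjamini-Hochberg adjustment at 0.05, in R 4.3.3 with edgeR 4.0.16. limma 3.58.1 on FPKM, DESeq2 1.42.0, other factors and filters, a replicate block and left-out libraries were alternatives. The code was tested on simulated data. CPM uses TMM-scaled totals, and errors are SD over 3 libraries. Library totals of 15938590 to 20311799 counts limit the precision for genes near 1 CPM. Members, lists and alternatives were chosen with earlier results of these data known. Named genes were those past the threshold, the most abundant and the smallest-p member of each family, and X-linked members, and of the other lists those past the threshold or with the smallest p. Other members were named after their values were seen. Exons of 11 members overlap an antisense gene and of 3 a same-strand gene (GENCODE M21).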

Additional observations from a re-analysis of the deposited data

How the results depend on the processing

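Of the members, 5 were higher and 2 lower with RLE factors (3.93% and 3.37% of all tested genes) and with library totals only (3.75% and 3.52%). With the strict filter of 5 CPM in 3 libraries, 4 and 2 of 45 members were (4.77% and 4.32%). DESeq2 called 6 and 2 (6.13% and 4.79%). With no low-count filter 8 were higher and 3 lower (3.62% and 2.65% of all genes). With limma-trend on log2(FPKM + 1), 3 and 2 of 46 members were (3.33% and 3.4% of all genes in that fit). Leaving out single libraries gave 0 to 10 higher and 0 to 6 lower: 1 and 0 for control 1 left out, 0 and 0 for control 2 (13 at an unadjusted p under 0.05 in edgeR), 2 and 1 for control 3, 1 and 0 for Zfhx3-CKO 1, 10 and 3 for Zfhx3-CKO 2, and 5 and 6 for Zfhx3-CKO 3. The share of all genes called moved too. It was 0.927% higher and 0.769% lower for control 1 left out, 0.913% and 0.843% for control 2, and 2.43% and 1.82% for control 3. For Zfhx3-CKO 1 left out it was 1.32% and 1.07%, for Zfhx3-CKO 2 5.11% and 3.61%, and for Zfhx3-CKO 3 6.47% and 6.06%. Leaving out Zfhx3-CKO 1 and 3 together gave 3 higher and 6 lower (4.97% and 4.93% of all genes), and such a fit assumes that the lone library varies like the controls. With the replicate block edgeR called 0 higher and 0 lower (16 at an unadjusted p under 0.05), against 1.06% and 0.822% of all genes. The labels do not say whether the replicate numbers pair the libraries. Deviations of same-numbered libraries from their group means had correlations of -0.035, -0.081 and -0.25. With 3 libraries per group these values cannot settle whether the libraries were paired. Over all 52 tested members, direction reversed for 17, none of them among the 7 called. Without Zfhx3-CKO 1 and 3 the reversed log2 changes were 0.062 for Efna5, 0.20 for Efna1, -0.17 for Plxna3, -0.11 for Plxna2, -0.27 for Epha5, -0.47 for Epha6, -0.15 for Epha8, -0.66 for Epha10, -0.15 for Ephb6, -0.82 for Sema3a, -0.49 for Sema3c, -0.43 for Sema3d, -0.41 for Sema4f and -0.078 for Sema6b, and with the replicate block -0.024 for Sema3a. Fits that left out single libraries crossed 0 for Efna1 (-0.32 to 0.021), Efna3 (-0.92 to 0.10), Epha5 (-0.091 to 0.18), Epha7 (-0.41 to 0.18), Epha10 (-0.36 to 0.38), Plxna2 (-0.071 to 0.088), Plxna3 (-0.059 to 0.15), Sema3a (-0.36 to 0.39), Sema3b (-0.065 to 0.31), Sema4f (-0.11 to 0.43) and Sema6b (-0.0067 to 0.38). The cause was not tested. Depth limits the members near or below 1 CPM, such as Epha1 and Plxnb3.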

Other observations

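The order of the 3 Zfhx3-CKO libraries was examined after the values were seen. For 25 of the 52 tested guidance genes, library 2 was lowest, library 1 in the middle and library 3 highest, and 24.5% of all tested genes showed this order. The 25 included Ephb1 and Plxnd1, which were lower in the knockout libraries. The marker sums of cortical excitatory neurons, D1-type neurons, both striatal types together and the oligodendrocyte lineage had this order. Those of proliferation, LGE progenitors, D2-type neurons and microglia had the reverse order. For 8 genes (Efnb3, Epha6, Epha8, Ephb6, Sema3c, Sema3d, Sema4f and Sema5a) libraries 1 and 3 lay above all controls and library 2 did not, where 5.67% of all tested genes did so. Sema3c read 23.5, 22.0 and 17.7 CPM in control libraries against 36.7, 14.99 and 41.3 CPM in Zfhx3-CKO libraries 1, 2 and 3. Sema3d read 1.49, 1.70 and 0.898 CPM against 2.303, 1.01 and 6.31 CPM, and Epha6 read 1.37, 0.883 and 0.838 CPM against 2.499, 0.742 and 3.49 CPM. None of these 8 passed edgeR's test as designed, Epha8 passed with no low-count filter, and Epha6, Epha8, Ephb6 and Sema3c passed as higher without library 2. Without libraries 1 and 3, Sema3c, Sema3d and Epha6 had log2 changes of -0.49, -0.43 and -0.47. Which cells gave these reads was not tested.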
